A study of Mus musculus with 9 samples.

Results

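The 7 mature miRNAs described here are miR-128, miR-326, miR-338-3p, miR-129-3p, miR-298, miR-877 and miR-423-3p, and they are measured by 8 of the 582 miRNA probes on a bead array, since miR-128 has 2 probes. They were selected on their deposited log2 signal in this contrast, as single miRNAs outside larger families that were lower in mouse bone marrow after 5-FU, so their difference between the groups is given as a description without a test. The 5-FU group was 3 female C57Bl6/J mice given a single intraperitoneal dose of 150 mg/kg 5-fluorouracil. The untreated group was 5 mice of the same sex and strain that received no drug. All 8 mice were 6 wk old, and whole marrow was taken at day 4, freed of red cells by lysis and extracted for total RNA. Marrow of 5-FU animal 1 was profiled on 2 arrays, 1 in each of 2 profiling batches, so 9 arrays were available. Batch 1 held that array and the 5 untreated arrays, and batch 2 held the 3 arrays of the 5-FU animals.

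A miRNA is a short RNA cut from a hairpin precursor, and it guides Argonaute proteins to messenger RNAs that pair with its seed, bases 2 to 8. 5-Fluorouracil is an antimetabolite that blocks thymidylate synthesis and kills cycling cells, and in marrow it depletes dividing progenitors while most quiescent stem cells survive the first days. miR-128, miR-129-3p, miR-338-3p and miR-326 are best known from brain, and miR-423-3p and miR-877 are found in many tissues. Among these genes, those of miR-128 lie in introns of R3hdm1 and Arpp21, and miR-338-3p comes from an intron of Aatk, a kinase gene of the nervous system. miR-326 comes from Arrb1, which encodes beta-arrestin 1, and in mouse T cells it promotes the Th17 lineage. miR-298 lies beside miR-296 in the imprinted Gnas region, and miR-877 is a mirtron, a miRNA whose hairpin is a short spliced intron of Abcf1 and needs no Drosha cleavage.

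The mature sequences are printed because the members have little in common by sequence. They are taken from RefSeq on build GRCm38.p6, 5′ to 3′, with the seed in capitals. The array names miR-128, miR-326, miR-298 and miR-877 carry no arm, and they were matched to the arm that the older name stood for. The sequence given for miR-129-3p is that of the Mir129-2 hairpin.
miR-128-3p: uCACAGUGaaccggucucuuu
miR-326-3p: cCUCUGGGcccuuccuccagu
miR-338-3p: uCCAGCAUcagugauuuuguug
miR-129-2-3p: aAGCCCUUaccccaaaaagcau
miR-298-5p: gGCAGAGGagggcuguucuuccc
miR-877-5p: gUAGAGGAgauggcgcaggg
miR-423-3p: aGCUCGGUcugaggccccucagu

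The 7 seeds were all different. In the RefSeq table only miR-326 shared its seed with another mouse miRNA, miR-330-5p. Guanine and cytosine made up 40.9% to 66.7% of the bases, with a median of 65% over the 7 members against 52.2% over all 1679 mouse mature miRNAs in the table. That composition fell into a rich part and a poor part. miR-326, miR-298, miR-877 and miR-423-3p were above 60%, and miR-128, miR-338-3p and miR-129-3p were under 50%.

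The members were also spread over the genome, with 8 loci on 6 chromosomes. Identical copies of miR-128-3p lie at chr1:128202404-128202424 on the plus strand within the span of R3hdm1 and at chr9:112118644-112118664 on the minus strand within Arpp21, so the array cannot separate their products. miR-326 lies at chr7:99552328-99552348 on the plus strand within Arrb1. On chromosome 11 and the minus strand, miR-338-3p lies at chr11:120014781-120014802 within Aatk and miR-423-3p at chr11:77078086-77078108 within Nsrp1. miR-877 lies at chr17:35960795-35960814 on the minus strand within Abcf1. miR-129-2-3p lies at chr2:94241376-94241397 on the minus strand within the lncRNA gene Mir670hg, and miR-298 at chr2:174267553-174267575 on the minus strand, outside any annotated gene other than its own. In all, 6 of the 8 loci were within the span of a protein-coding gene.

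Signals are the log2 values deposited by the authors, which they scaled to an equal total miRNA signal, so each value is relative to all miRNAs of its array. The lowest value, 3, is a floor, and 46.8% of all values in the table stood at it. Deposited totals were 401283 to 402143 units in batch 1 and 355655 to 362039 units in batch 2, and raw totals were 336483 to 679696 fluorescence units. The marrow and blood markers were high, with mean log2 signals of 11.42 to 13.23 for 7 probes (miR-223, miR-142-3p, miR-142-5p, miR-150, miR-451, miR-144 and miR-486). Tests were run on the 379 probes above the floor in at least 3 of the 8 animals, and all 8 member probes were among them.

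All 8 member probes were lower in every 5-FU animal than in every untreated animal. Their median difference was −2.28 on the log2 scale (range −3.13 to −1.79), beside a median of −0.16 over all 379 tested probes. limma called all 8 lower, where its background was 25.1% of tested probes called lower, and the groups did not overlap in all 8, where that background was 25.6%. Those backgrounds include probes at the floor in untreated animals, which cannot be lower. When only the 158 probes above log2 7 were tested, 44.3% were called lower, among them all 6 member probes in that set. These counts of members follow from how the members were chosen. In whole marrow, fewer cells of a type and less RNA per cell cannot be told apart.

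**Figure D1:**
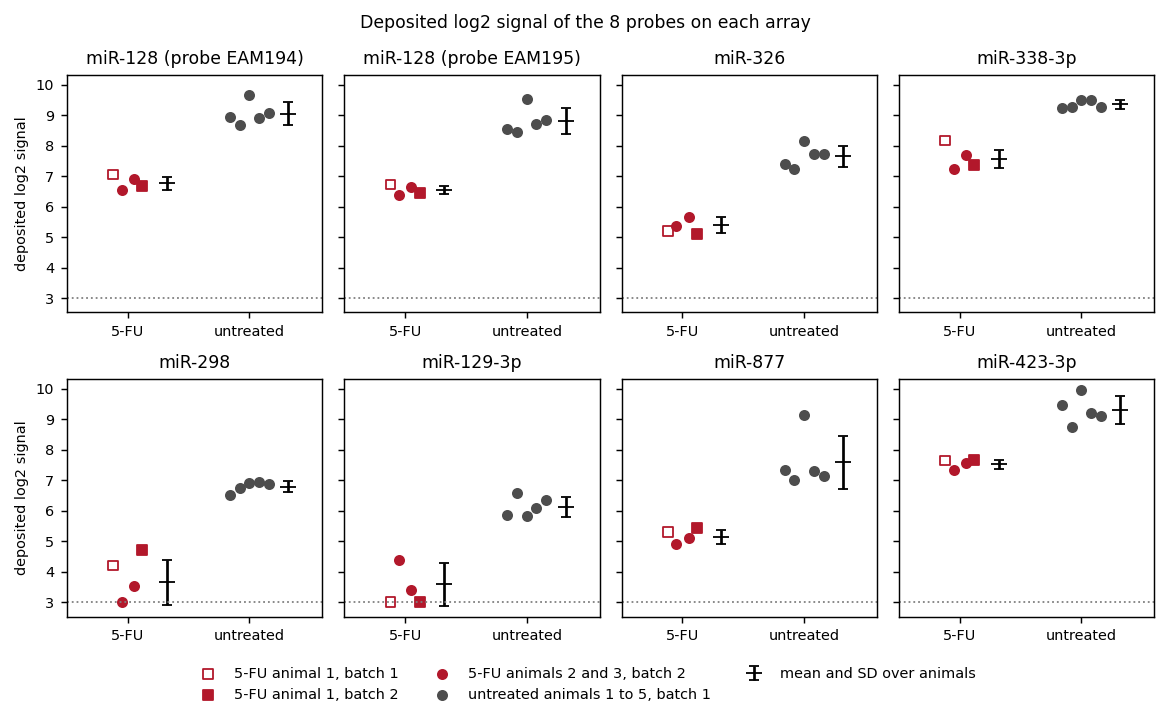
Deposited log2 signal (y axis) of each member probe by group, with 1 point per array; bars give the mean and SD over the 3 5-FU and 5 untreated animals, and the dotted line is the floor of 3. In every panel the 4 5-FU arrays lie below the 5 untreated arrays, and only miR-298 and miR-129-3p reach the floor.

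miR-128, which represses messenger RNAs of neuronal excitability in mouse brain, was read by both of its probes. Its probe EAM194 gave 7.05 and 6.66 on the 2 arrays of 5-FU animal 1, 6.53 in animal 2 and 6.90 in animal 3, against 8.93, 8.67, 9.67, 8.90 and 9.08 in the 5 untreated animals. Its probe EAM195 gave 6.72 and 6.45 in 5-FU animal 1, 6.39 in animal 2 and 6.65 in animal 3, against 8.53, 8.43, 9.52, 8.70 and 8.85 in untreated animals. On both probes untreated animal 3 was the highest array and 5-FU animal 2 the lowest, with a gap of 1.76 (EAM194) and 1.78 (EAM195) between the nearest animals of the groups. Means were 6.76 ± 0.21 in 5-FU and 9.05 ± 0.38 in untreated animals for EAM194 (SD, n = 3 and 5), a difference of −2.29. For EAM195 they were 6.54 ± 0.14 and 8.81 ± 0.43, in the same order, a difference of −2.27. The geometric mean signal of untreated animals was thus 4.88 times (EAM194) and 4.81 times (EAM195) that of 5-FU animals.

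The pair of miR-128 probes gives a check on the measurement itself. EAM194 read above EAM195 on all 9 arrays, by 0.24 on average (SD 0.09, range 0.14 to 0.41). After the untreated mean was subtracted from each, their root mean square difference over the 8 animals was 0.08, which was the smallest among all pairs of member probes. Both probes carry the same miRNA name, so they are not independent evidence of a second change.

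miR-326 had 5.20 and 5.11 on the arrays of 5-FU animal 1, 5.37 in animal 2 and 5.67 in animal 3, against 7.40, 7.22, 8.15, 7.71 and 7.73 in untreated animals. Here 5-FU animal 1, not animal 2, was the lowest. The means were 5.40 ± 0.26 in 5-FU and 7.64 ± 0.36 in untreated animals (SD, n = 3 and 5), a difference of −2.24 or a 4.73-fold lower signal.

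miR-338-3p, which in mouse promotes oligodendrocyte differentiation, had 8.17 and 7.36 on the arrays of 5-FU animal 1, 7.22 in animal 2 and 7.70 in animal 3. Untreated animals had 9.23, 9.25, 9.49, 9.51 and 9.27. It was the member with the narrowest untreated group (SD 0.14) and with the widest disagreement between the arrays of 5-FU animal 1. The means were 7.56 ± 0.30 in 5-FU and 9.35 ± 0.14 in untreated animals (SD, n = 3 and 5), a difference of −1.79 or a 3.45-fold lower signal.

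miR-129-3p, which in human cells and zebrafish acts on centriolar proteins during cilium formation, stood at the floor of 3 on both arrays of 5-FU animal 1. It had 4.37 in 5-FU animal 2 and 3.40 in animal 3, against 5.86, 6.57, 5.81, 6.08 and 6.37 in untreated animals. The 5-FU animals thus spread from the floor up to 4.37 while the untreated animals stayed within 0.75 of each other. The means were 3.59 ± 0.70 in 5-FU and 6.14 ± 0.33 in untreated animals (SD, n = 3 and 5), a difference of −2.55. A value at the floor stands for 3 or anything lower, so this difference is bounded by the floor.

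miR-298 had 4.20 and 4.72 on the arrays of 5-FU animal 1, the floor of 3 in animal 2 and 3.52 in animal 3, against 6.51, 6.74, 6.92, 6.94 and 6.87 in untreated animals. It showed the widest gap between the groups in the deposited values, 2.05. The means were 3.66 ± 0.74 in 5-FU and 6.79 ± 0.18 in untreated animals (SD, n = 3 and 5), a difference of −3.13, again bounded by the floor. In rank from the most negative of the 379 tested probes the members' differences in deposited values lay between 2 and 22, and the order of miR-298 and miR-129-3p in it is not fixed, since both were at the floor in a 5-FU animal.

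miR-877 had 5.31 and 5.43 on the arrays of 5-FU animal 1, 4.91 in animal 2 and 5.11 in animal 3, against 7.35, 7.02, 9.13, 7.30 and 7.14 in untreated animals. Untreated animal 3 stood apart from the other 4, which lay between 7.02 and 7.35. The means were 5.13 ± 0.23 in 5-FU and 7.59 ± 0.87 in untreated animals (SD, n = 3 and 5), a difference of −2.46. Without untreated animal 3 the difference was −2.08.

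miR-423-3p had 7.64 and 7.67 on the arrays of 5-FU animal 1, 7.35 in animal 2 and 7.56 in animal 3, against 9.47, 8.76, 9.97, 9.21 and 9.12 in untreated animals. Its groups came closest of all members, with a gap of 1.10. The means were 7.52 ± 0.16 in 5-FU and 9.30 ± 0.45 in untreated animals (SD, n = 3 and 5), a difference of −1.79 or a 3.45-fold lower signal.

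**Figure D2:**
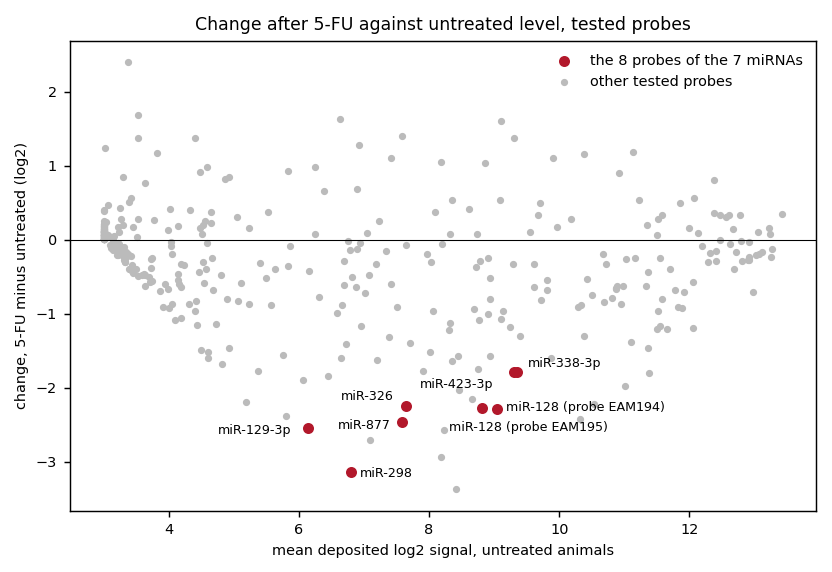
Difference between 5-FU and untreated means (log2, y axis) against the mean untreated log2 signal (x axis) for the 379 tested probes, with the member probes in red. The members lie between −3.13 and −1.79, near the lower edge of the cloud, and probes close to the floor of 3 have no room to be much lower.

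The authors' deposited table carries its own test of the same contrast and is given only as a record. There, a threshold was marked as passed by 168 of the 582 probes, and 6 of the 8 member probes were among them. Their false discovery rates were 0.0004163 for miR-128 (EAM194) and miR-326, and 0.001105 for miR-128 (EAM195). They were 0.003052 for miR-423-3p, 0.009032 for miR-338-3p and 0.009243 for miR-877. miR-298 and miR-129-3p were not marked and have no mean, p-value or false discovery rate there, so the mark is not read as a significance call. The authors' 5-FU mean of EAM194, 6.79, is that over the 4 5-FU arrays, against 6.76 over the 3 animals. Their 5-FU values thus took the 2 arrays of 5-FU animal 1 as separate samples.

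The 5-FU animals differed from each other less than from the untreated group. Animal 2 was the lowest for 6 of the 8 member probes. Set against the untreated mean, miR-128 on EAM194 was −2.19, −2.52 and −2.14 in 5-FU animals 1, 2 and 3. miR-298 was −2.33, −3.79 and −3.28 in the same animals, and miR-129-3p ran the other way, with −3.14, −1.77 and −2.74. The smallest single difference of any member in any 5-FU animal was that of miR-338-3p in animal 1, −1.58. For miR-298, miR-129-3p and miR-338-3p the SD was larger among 5-FU than among untreated animals, and for the other probes it was smaller.

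Among untreated animals most member probes moved with the array. miR-129-3p ran the other way, highest in animal 2 and lowest in animal 3, and miR-338-3p and miR-298 were highest in animal 4. Untreated animal 3 was the highest of the 5 for 5 of the 8 member probes and animal 2 the lowest for 5 of 8. This was not particular to the members, since animal 3 was also the highest in 58.4% and animal 2 the lowest in 42% of the 317 tested probes that varied among untreated animals. The median deviation of the members from the untreated mean was 0.56 in animal 3 and −0.38 in animal 2. The median SD over untreated animals was 0.37 for the members and 0.32 for all tested probes.

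Batch went with group for all animals but 5-FU animal 1, whose arrays allow a comparison inside batch 1. There its array lay below all 5 untreated arrays for all 8 member probes, beside a background of 26.9% of tested probes. Within batch 1 the difference was −1.99 for miR-128 on EAM194, −2.09 on EAM195, −2.44 for miR-326 and −1.18 for miR-338-3p. For the other members it was −3.14 for miR-129-3p, −2.59 for miR-298, −2.28 for miR-877 and −1.66 for miR-423-3p. The median over the members was −2.19 within batch 1 and −2.28 over all animals, beside −0.07 and −0.16 over all tested probes.

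That comparison rests on 1 treated array, and the repeat on the same animal shows how much an array can vary. From the batch 1 to the batch 2 array of 5-FU animal 1, miR-338-3p differed by −0.81, miR-298 by 0.52 and miR-128 by −0.40 on EAM194, whereas miR-423-3p differed by 0.02. The SD of this repeat difference was 0.39 over the member probes and 0.35 over all tested probes. With batch as a term in limma over all 9 arrays, 6 of the 8 member probes remained called lower, where the background was 7.39% of tested probes. The exceptions were miR-877 (limma adjusted p = 0.159) and miR-423-3p (limma adjusted p = 0.0523). Batch 2 held only 5-FU arrays, so each difference in that fit is the one within batch 1 and rests on the same treated array. The fit also took the 2 arrays of 5-FU animal 1 as separate samples. The members were chosen on these same arrays, so this count and that within batch 1 are descriptions too.

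The raw fluorescence shows how far each member stood above the background wells before any scaling. miR-128 on EAM194 read 150 and 244 units on the arrays of 5-FU animal 1, 199 in animal 2 and 287.5 in animal 3, and 355, 537.5, 601, 684 and 1452 units on the 5 untreated arrays, listed in order of size. Its water wells read 24.5 and 27 units, so even its lowest 5-FU array was 5.56 times the higher water well. miR-298 read 37 and 70 units for 5-FU animal 1, 31 in animal 2 and 42 in animal 3, and 106, 115, 162, 167.5 and 233 units on the untreated arrays. Its lowest 5-FU array was 1.55 times the higher water well of 20 units, and the TMAC buffer well of batch 2 read 38 units, above 2 of its 4 5-FU arrays. In 5-FU marrow this miRNA was thus read at or close to background.

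miR-129-3p is the member whose raw readings lay closest to the water wells in both groups. Its probe read 59 and 93 units for 5-FU animal 1, 166.5 in animal 2 and 123 in animal 3, and 120, 136, 141, 158 and 160 units on the untreated arrays. The water wells of the same probe read 59.5 and 103 units, so 2 of the 4 5-FU arrays were at or below the higher one, and the highest untreated array was 1.55 times it. The TMAC well of this probe read lower, 39 units. In raw units 5-FU animal 2 was above every untreated array.

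**Figure D3:**
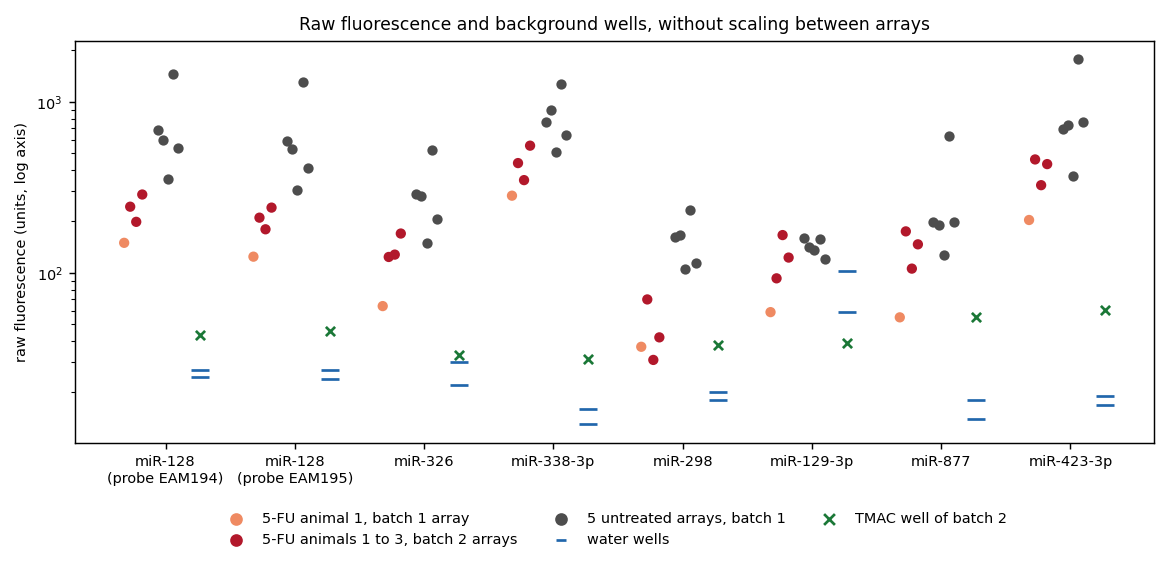
Raw fluorescence (units, log axis) of each member probe on the 4 5-FU arrays and, to their right, the 5 untreated arrays, with the 2 water wells as dashes and the batch 2 TMAC buffer well as a cross. Only miR-129-3p has its water wells, at 59.5 and 103 units, inside the range of its samples, and the TMAC well of miR-298, at 38 units, lies above 2 of its 5-FU arrays.

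Without scaling, the raw groups did not overlap for 3 of the 8 member probes, the miR-128 pair and miR-298, beside a background of 3.69% of tested probes. For the other members they overlapped. miR-326 read 64 to 170 units on 5-FU arrays and 150 to 527 units on untreated arrays, miR-338-3p 283 to 555 and 508 to 1275 units, miR-877 55 to 175 and 128 to 633 units, and miR-423-3p 204 to 461 and 368 to 1782.5 units, each with 5-FU first. These raw values carry the differences in total fluorescence between arrays.

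Each of 4 rescalings of the raw values left the groups without overlap for 7 of the 8 member probes, all but miR-129-3p. Over all 379 tested probes, 64 were lower without overlap after quantile normalization (16.9%), 21 with control beads (5.54%) and 74 with the TMAC well for batch 2 (19.5%). After subtraction of the higher water well and scaling to an equal total, 41 of the 379 tested probes were lower without overlap (10.8%), and every member's difference was smaller than in the deposited values. The difference was then −1.80 for miR-128 on EAM194 and −1.81 on EAM195, −1.48 for miR-326, −1.09 for miR-338-3p, −2.89 for miR-298, −1.26 for miR-877 and −1.29 for miR-423-3p. miR-129-3p had −0.81 by that route and −0.31 after quantile normalization, in which no background was subtracted. It had 0.59 when the TMAC buffer well replaced the water wells for batch 2, an alternative chosen after seeing the data. Its direction thus depended on the background that was subtracted.

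Deposited values of batch 2 differed by more than a scale from raw values less the higher water well. For the batch 1 array of 5-FU animal 1, deposited values and raw values less that well differed by a nearly constant amount on the log2 scale. The batch 2 columns did not, and 76 tested probes carry 1 identical value above the floor on all 3 batch 2 arrays. No member probe was among those 76. What was done to batch 2 before deposit is not stated in the labels or file headers.

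**Figure D4:**
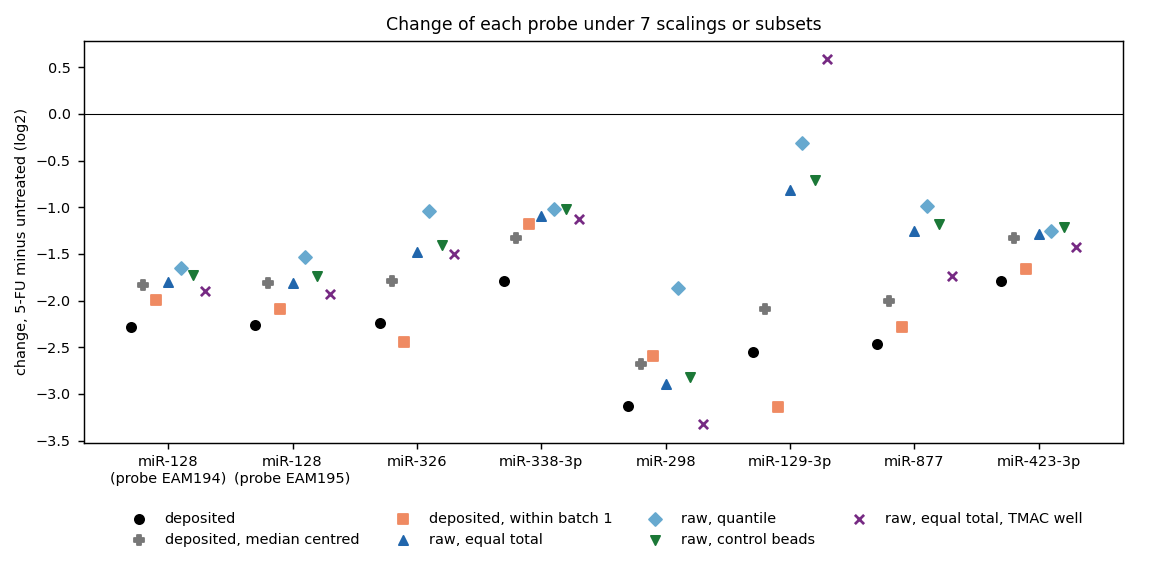
Difference between 5-FU and untreated means (log2, y axis) for each member probe under 7 scalings or subsets of the arrays. Every point lies below 0 except miR-129-3p at 0.59 with the TMAC well, and the raw scalings mostly lie closer to 0 than the deposited values.

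The partner arms and seed relatives of the members were not used to choose them, and they were tested with limma over all 379 probes. Of 6 such probes found on the array, 4 were tested. A hairpin yields a 5p and a 3p arm from one precursor, which is shown here for the hairpins with both arms on the array, Mir423 (chr11:77078064-77078172, minus strand) and Mir129-2 (chr2:94241364-94241453, minus strand), from RefSeq on GRCm38.p6 with the 5p arm and then the 3p arm in capitals.
Mir423: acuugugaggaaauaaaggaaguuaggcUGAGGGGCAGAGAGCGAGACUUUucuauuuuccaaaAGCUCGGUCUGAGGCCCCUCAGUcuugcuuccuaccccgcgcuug
Mir129-2: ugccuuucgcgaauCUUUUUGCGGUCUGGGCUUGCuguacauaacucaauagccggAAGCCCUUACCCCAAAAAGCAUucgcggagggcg

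miR-423-5p, the other arm of the Mir423 hairpin, was not called. It had 11.23 and 11.18 on the arrays of 5-FU animal 1, 10.90 in animal 2 and 11.21 in animal 3, against 11.29, 11.43, 12.71, 11.87 and 11.63 in untreated animals. Every 5-FU array was below every untreated array, but the nearest values almost touched and untreated animal 3 was again the highest. The means were 11.11 ± 0.17 in 5-FU and 11.79 ± 0.56 in untreated animals (SD, n = 3 and 5), a difference of −0.68 (SE 0.32, limma adjusted p = 0.138). The difference of its 3p arm was −1.79, and whether the arms differed in response was not tested. Over the alternatives tried, the difference of miR-423-5p ranged from −0.80 to 0.06.

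miR-129-5p, the partner of miR-129-3p, was at the floor of 3 on all 9 arrays and could not be tested. The 3p arm was therefore the sole readable arm of this hairpin, and its own raw values were close to the water wells, as given above. miR-296-5p, the neighbour of miR-298 with 378 bases between their hairpins, was at the floor in all 3 5-FU animals and in 3 of 5 untreated animals, with means of 3.00 and 3.05 in that order, and was not tested. The genomic neighbour thus gives no reading beside the difference of −3.13 for miR-298.

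**Figure D5:**
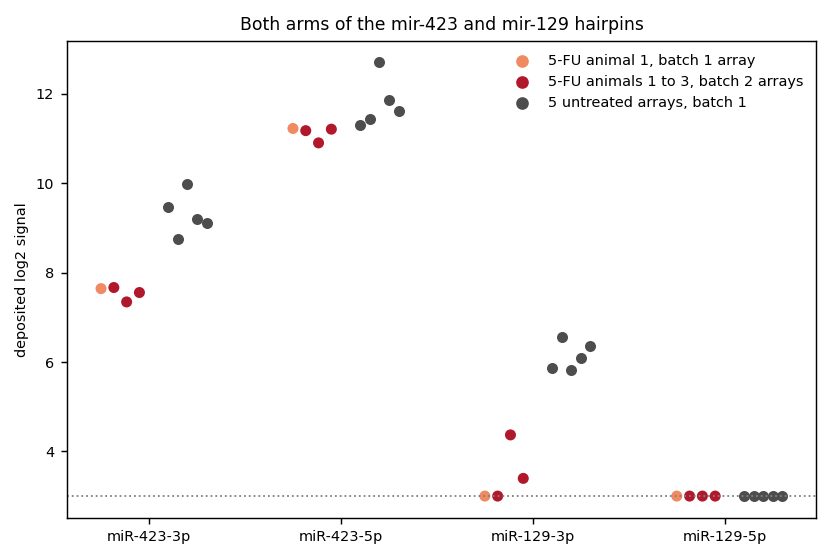
Deposited log2 signal (y axis) of the 3p and 5p arms of the mir-423 and mir-129 hairpins on each array, 5-FU left of untreated for each arm. miR-423-3p separates the groups with a gap of 1.10, miR-423-5p has means of 11.11 in 5-FU and 11.79 in untreated animals, and miR-129-5p lies on the floor of 3 throughout.

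The seeds of miR-27a-3p and miR-27b-3p share 6 bases with that of miR-128, one position apart, and both act in blood and fat cells in mouse. The sequences are from RefSeq on GRCm38.p6, with the seed in capitals.
miR-128-3p: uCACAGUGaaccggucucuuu
miR-27a-3p: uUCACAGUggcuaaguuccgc
miR-27b-3p: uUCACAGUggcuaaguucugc

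miR-27b was lower after 5-FU. It had 10.55 and 10.33 on the arrays of 5-FU animal 1, 10.02 in animal 2 and 10.19 in animal 3, against 10.91, 10.74, 10.95, 10.86 and 10.91 in untreated animals. No 5-FU array reached the untreated range, whose SD was 0.08. The means were 10.22 ± 0.21 in 5-FU and 10.87 ± 0.08 in untreated animals (SD, n = 3 and 5), a difference of −0.66 (SE 0.10, limma adjusted p = 0.00312). The call was lost with batch as a term (limma adjusted p = 0.179), where the difference was −0.33, within batch 1, and under median centring and each raw scaling. miR-27a was not called, with a difference of −0.18 (SE 0.08, limma adjusted p = 0.105). It was called lower in 4 alternatives. The differences there were −0.32 with raw equal totals, −0.24 with raw quantile normalization, −0.31 with the TMAC well and −0.23 without untreated animal 3. After median centring its difference was 0.27 and not called. Which of the 2 miR-27 probes was called thus depended on the scaling. Neither miR-27 probe came near the −2.29 and −2.27 of the miR-128 probes, a contrast that was not tested.

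miR-330-5p, which has the seed of miR-326, was not matched to a probe analysed here. The arm from the other side of its hairpin, under the human name miR-330-3p, had means of 3.33 in 5-FU and 3.99 in untreated animals, a difference of −0.66 (limma adjusted p = 0.0642). A probe named for the mouse mir-330 hairpin itself was called lower, with means of 3.13 in 5-FU and 4.81 in untreated animals. Its difference was −1.68 (limma adjusted p = 0.00931), with the 5-FU mean close to the floor of 3. With batch as a term it was not called (limma adjusted p = 0.0938). The only seed shared in full by a member was thus not followed on the array.

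Because miR-128, miR-326, miR-338-3p and miR-129-3p are known from brain, other miRNAs known from neural tissue were read on the same arrays. Of 16 probes found, 14 were tested, and limma called 3 lower and 3 higher, with 8 not called and a median difference of 0.05. The background was 25.1% called lower and 15.6% called higher over all tested probes. The share called higher includes probes at the floor of 3 in all untreated animals. An example is the human-named miR-627, which was higher by 0.09 and stood above the floor on batch 2 arrays only. With the batch 1 array alone for 5-FU animal 1, limma called 74 of the 379 probes lower and 21 higher. This list of brain-associated miRNAs thus had calls in both directions, as all tested probes did, and nothing further is read from the counts.

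Of the 3 called lower, miR-219, which like miR-338-3p promotes oligodendrocyte differentiation in mouse, had 7.83 and 7.42 on the arrays of 5-FU animal 1, 6.74 in animal 2 and 7.26 in animal 3, against 8.37, 8.00, 8.54, 8.34 and 8.40 in untreated animals. Its difference was −1.12 (limma adjusted p = 0.00700), and its groups did not overlap. miR-149 had a difference of −1.01 (limma adjusted p = 0.0370). miR-7a, a miRNA of neuroendocrine cells, had −0.65 (limma adjusted p = 0.0266). Over 23 alternatives the call was lost in 17 for miR-149, in 13 for miR-7a and in 6 for miR-219.

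Of the 3 called higher, miR-218, which marks motor neurons in mouse, was the one well above the floor. It had 8.09 and 8.43 on the arrays of 5-FU animal 1, 8.23 in animal 2 and 8.32 in animal 3, against 5.72, 6.84, 6.18, 7.17 and 7.27 in untreated animals, a difference of 1.63 (limma adjusted p = 0.0132). miR-124, the most neuron-specific of the list, was at the floor of 3 in all untreated animals and had a mean of 3.40 in 5-FU animals (limma adjusted p = 0.0132). miR-137 averaged 3.28 in 5-FU and 3.03 in untreated animals (limma adjusted p = 0.0100), and the sign of its difference was reversed with batch as a term, within batch 1 and under 3 raw scalings. It read 3.34 on each of the 3 batch 2 arrays and the floor of 3 on the batch 1 array of 5-FU animal 1. It is thus among the 76 tested probes with 1 identical value on all batch 2 arrays. Among those not called, the highest were miR-132 with a difference of 0.84 (limma adjusted p = 0.0962), miR-153 with 0.77 (limma adjusted p = 0.138), and the probes for miR-7b and the human-named miR-346, with 0.27 and −0.24. None of the 14 was called with batch as a term, against 9.76% of all tested probes, and 1 was called within batch 1.

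Markers of other tissues moved in more than one direction. The 5 neural markers miR-124, miR-9, miR-137, miR-153 and miR-219 summed to log2 values of 7.27 to 7.95 in 5-FU and 8.17 to 8.71 in untreated animals, with miR-9, miR-124 and miR-137 at or near the floor. That sum was carried by miR-219, with means of 7.21 in 5-FU and 8.33 in untreated animals, whereas the differences of miR-153, miR-124 and miR-137 were 0.77, 0.40 and 0.25. The liver marker miR-122 averaged 3.62 in 5-FU and 3.45 in untreated animals. limma called all 3 skeletal muscle markers higher, beside 15.6% of tested probes. When only the 158 probes above log2 7 were tested, 18 were called higher. The differences were 1.04 for miR-206, 1.16 for miR-133b and 0.80 for miR-1. These 3 markers summed to 13.64 to 13.74 in 5-FU and 12.23 to 13.24 in untreated animals. With batch as a term none of the 3 was called (limma adjusted p = 0.328 for miR-206, 0.163 for miR-133b and 0.247 for miR-1). The part of these tissues in the lower signal of the members was not tested. For the 7 marrow and blood markers the sums were 15.14 to 15.35 in 5-FU and 15.25 to 15.62 in untreated animals. Of these, limma called miR-451 lower by 0.70 (limma adjusted p = 0.0132) and miR-150 lower by 0.39 (limma adjusted p = 0.0389). That stood beside 25.1% of tested probes called lower. The other marrow markers were not called, with differences from −0.16 for miR-223 to 0.54 for miR-486. Neither miR-451 nor miR-150 was called with batch as a term.

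For each member, the other probes whose profile over the 8 animals was nearest were found by the root mean square difference after subtraction of each untreated mean, among 280 candidates. Members of the miR-181 family, regulators of lymphoid and progenitor differentiation in mouse, came first for 5 of the 8 member probes. miR-181c was nearest to both miR-128 probes (0.15 for EAM194 and 0.17 for EAM195) and to miR-326 (0.24), miR-181b to miR-338-3p (0.10) and miR-181d to miR-877 (0.34). Means of miR-181c were 6.51 in 5-FU and 8.66 in untreated animals. miR-130b was nearest to miR-423-3p (0.14) and second for miR-128 on EAM194 (0.21) and miR-326 (0.26), and its own difference was −1.97. The other second neighbours were miR-181d for miR-128 on EAM195 (0.18), the human-named miR-215 for miR-338-3p (0.15), the human-named miR-362-5p for miR-877 (0.37) and miR-339-5p for miR-423-3p (0.21).

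The members near the floor had no close neighbour. miR-351 was nearest to miR-298 at 0.47, followed by miR-363 at 0.67. For miR-129-3p the nearest was miR-351 at 0.67, followed by miR-181b at 0.69. Between the members themselves, miR-326 lay 0.18 and 0.16 from the miR-128 probes EAM194 and EAM195, and miR-338-3p lay 0.29 from miR-423-3p. miR-298 and miR-423-3p were the farthest pair, at 0.94. These distances are a description over animals that share 2 group means and the same arrays.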

How the data were processed

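Per the labels' protocols, adaptors were ligated to total RNA, which was reverse-transcribed, amplified with biotin label, captured on probe-coupled beads and stained with streptavidin-phycoerythrin. The authors deposited raw fluorescence intensity per probe, with 2 water wells and 1 TMAC buffer well, and a table of log2 values with a floor of 3, scaled on the assumption of equal total miRNA signal, per the series' design text. The deposited p-values and false discovery rates come from the authors' Student's t-test with Benjamini-Hochberg adjustment. No source used here names the analysis software of the submitters.

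The 2 arrays of 5-FU animal 1 were averaged, so n is 3 and 5 animals. Probes above the floor in at least 3 animals (379 of 582) were tested with lmFit and eBayes of limma 3.58.1 (R 4.3.3), two-sided, with Benjamini-Hochberg adjustment over all 379 and a threshold of 0.05. On simulated data of 379 probes in 20 runs for this comparison, 50.9%, 79.3% and 96.8% of changes of 0.5, 1 and 2 (log2) were recovered, with 2.63% of calls false. Whether these rates hold for the arrays themselves, where many values stand at the floor and batch mostly goes with group, was not tested. Alternatives covered batch, scaling, filters, tests and single animals. In the raw scalings the higher of the 2 water wells was subtracted, or the TMAC well for batch 2 where named. Quantile normalization was the exception and had no background subtracted. For control beads, 12 control rows set the scale after the subtraction. The number of arrays limits the precision.

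The members and all lists were chosen with earlier results of these data known. Named probes are all members, their partner arms, neighbours and seed relatives on the array, and the called probes of the neural list. Up to 4 others of highest mean from that list, the tissue markers and, for each member, the 2 probes of nearest profile are named too. The mir-330 hairpin probe is named besides these. Each of the 5 untreated columns of the deposited table best matched a raw column named for another untreated animal, so raw untreated values are given without animal numbers. Group membership is not touched by this.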

Additional observations from a re-analysis of the deposited data

Results flagged for a closer look

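Of 46 probes examined for a single animal far from its group, 2 stood out, and chance alone flags about 1 in 20 groups. miR-877 in untreated animals had its gap between animal 3 at 9.13 and the nearest animal at 7.35, and this gap was 0.845 of the group's whole range. The difference of miR-877 between 5-FU and untreated animals was −2.46 with that animal and −2.08 without it. miR-296-5p in untreated animals had animal 3 at 3.19 and the nearest at 3.04, a gap of 0.799 of the range, with both values close to the floor of 3.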

How the results depend on the processing

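Every member kept a negative difference under each alternative run, except miR-129-3p at 0.59 with the TMAC well for batch 2, which was chosen after seeing the data. Of 182 member values under the alternatives, 143 moved by less than the spread between animals and 38 moved further. Part of the 143 could not move, since another filter or test leaves the difference of a probe as it was. The values with batch as a term and within batch 1 are the same and were both counted. The median difference of the members was −1.82 after median centring, −1.38 with raw values at an equal total, −1.14 with raw quantile normalization, −1.31 with control beads and −1.62 with the TMAC well, beside medians over all tested probes of 0.30, 0, 0, 0 and −0.11 in the same order. Leaving out 1 animal at a time gave −2.37 to −2.10. limma called 3 member probes within batch 1, where the lone 5-FU array is assumed to vary like the untreated ones, and 1 with control beads. All calls numbered 154 over 8 animals, 95 with the batch 1 array alone for 5-FU animal 1, 12 within batch 1, 37 with batch as a term, 56 with raw equal totals, 3 with control beads (57 at an unadjusted p under 0.05), 87 with the TMAC well and 88 of 158 probes above log2 7, a filter that leaves out miR-298 and miR-129-3p. Leaving out 1 animal gave 95 (without 5-FU animal 2) to 168 calls. Lower against higher calls were 95 and 59, 56 and 113 after median centring, 76 and 76 with deposited values at an equal total, 29 and 27 with raw equal totals, 49 and 54 with raw quantile normalization and 1 and 2 with control beads. Of the neural list, 6 were called, 3 with the batch 1 array alone, 1 within batch 1, 0 with batch as a term, 1 with raw equal totals, 0 with control beads, 2 with the TMAC well and 3 to 7 without 1 animal. miR-137 reversed to −0.032 with batch as a term and inside batch 1, to −0.027 with control beads, and to −0.015 with raw equal totals and with the TMAC well. The cause of these shifts was not tested. With the animal number as a replicate block, 52 probes, 7 member probes (not miR-877) and 2 of the neural list were called. The labels do not say that the numbers mark a shared origin, same-numbered deviations correlated at 0.05, 0.35 and 0.17 over probes, and 2 of 3 5-FU animals correlated best with their own number. Signals near the floor or the water wells limit miR-298 and miR-129-3p.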
